A study of Homo sapiens with 9 samples.

Results

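Human embryonic stem cells that had begun to differentiate under retinoic acid (RA) were set directly against the same cells after DNA damage by doxorubicin (DOX). The comparison takes the 3 arrays titled as differentiation and the 3 titled as damage, 6 of the 9 arrays in the series, and reads them over the 41091 of 54675 probe sets that the platform annotation ties to exactly 1 gene. These probe sets stand for 19775 genes. Expression was measured on 1-colour Affymetrix arrays, and each value is a normalised log2 level per probe set. All cells were of the WA09 line, an established line of pluripotent cells. The RA arrays hold cells given 1 µM retinoic acid for 2 days in medium without added FGF. The DOX arrays hold cells given doxorubicin for 5 h, at a dose that the labels used here do not give. The 3 pluripotent arrays hold untreated cells and serve to say which side of a difference had moved. They do not enter the difference between RA and DOX itself, but they share in the estimate of spread behind its p-values. The RA and DOX arrays therefore differ in agent, in time under treatment and in the growth factor, and these cannot be told apart. Cells of the study were kept on irradiated mouse feeder cells or feeder-free, and the labels do not say which culture gave each array. Whether the 3 arrays of 1 condition were grown as separate cultures is not stated either, so p-values measure only how these arrays vary, and that variation may be technical.

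Doxorubicin traps topoisomerase II on DNA and leaves double-strand breaks. The breaks stabilise the transcription factor p53, which switches on genes of cell cycle arrest, death and repair together with its own inhibitors, and stress kinases switch on immediate-early transcription factors. Retinoic acid binds nuclear receptors that sit on paired half-sites in DNA, and the receptor dimers then induce enzymes that degrade retinoic acid and homeobox factors that pattern the embryo. Serum response factor (SRF) is a further regulator that binds a short element, the CArG box, before immediate-early and actin cytoskeleton genes.

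Differences are given as RA minus DOX on the log2 scale, so that a negative value means a higher level in the DOX arrays. Errors are standard errors from a limma model over all 9 arrays. Each adjusted p is from that model, with the Benjamini-Hochberg procedure applied across the 41091 probe sets. A gene is represented by its probe set with the highest mean level and is called at an adjusted p under 0.05. The median probe set had a mean level of 5.01. No measure of background was used, so a lower level than that may be background, and a fold set against it may be a lower bound. In these bulk samples, fewer cells of a type and less RNA per cell cannot be told apart.

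Differentiating and damaged cells differed in 3746 of 19775 genes (18.9%). Of these, 2227 (11.3% of all genes) were higher in RA and 1519 (7.68%) were higher in DOX. The differences toward DOX were the larger ones. At least 2-fold apart were 524 genes (2.65%), 301 higher in DOX (1.52%) and 223 higher in RA (1.13%), at least 4-fold apart 79 and 20, and at least 8-fold apart 27 and 8. The median called gene differed by 0.505, and the median over all genes was near 0, at -0.00399. For 34.8% of genes the 3 RA arrays and the 3 DOX arrays did not overlap, and 3734 of the 3746 called genes were among them. Of 2477 called genes with several probe sets, 1029 had a second probe set called in the same direction, and 63 genes had probe sets called in opposite directions. Every array of a condition lay apart from every array of the other on the leading principal component, which carried 54.3% of the variance. RA arrays scored -25.28 to -22.62 and DOX arrays 28.06 to 32.32, with the pluripotent arrays in between at -8.88 to -2.61.

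**Figure D1:**
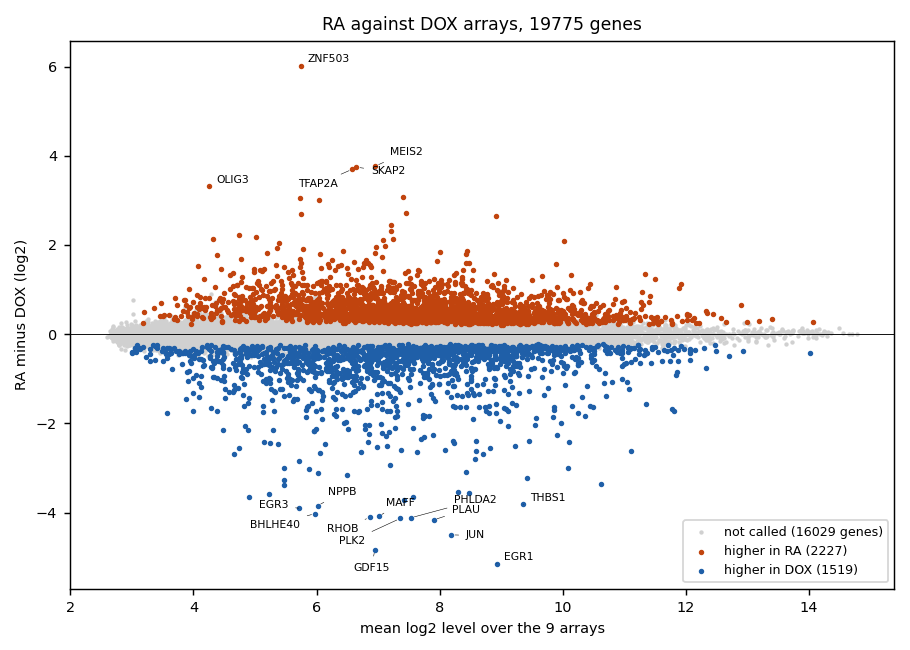
Difference between RA and DOX arrays (vertical axis, log2, mean of 3 arrays minus mean of 3 arrays) against the mean level over the 9 arrays (horizontal axis, log2), 1 point per gene for 19775 genes. Coloured points are the 2227 genes called higher in RA and the 1519 called higher in DOX. The points below 0 reach farther from the middle than those above it, apart from ZNF503 at 6.02.

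Which side had moved was read from 2 further contrasts, RA minus pluripotent and DOX minus pluripotent, which share the 3 pluripotent arrays. Among the 301 genes at least 2-fold higher in DOX, 168 had risen in DOX with no call in RA, 86 had risen in DOX and fallen in RA, and 25 had fallen in RA alone. A further 12 had risen in both, 6 had fallen in both and 4 were called in neither. Among the 223 genes at least 2-fold higher in RA, 94 had risen in RA alone, 59 had fallen in DOX alone, and 46 had risen in RA and fallen in DOX. The other classes held 11 genes that rose in both and 13 called in neither. DOX was the side farther from the pluripotent mean for 231 of the 301 genes (76.7%), and RA was the farther side for 141 of the 223 (63.2%). Over all called genes the picture was wider and shallower. Of the 2227 genes higher in RA, 1034 had fallen in DOX alone, with a median of -0.477 on the log2 scale, while 292 had risen in RA alone and 784 were called on neither side. Of the 1519 higher in DOX, 639 had risen in DOX alone, 219 had fallen in RA alone, 106 had moved in opposite directions and 486 were called on neither side. Background rates of calls were 13.0% of genes for DOX against pluripotent (4.94% higher, 8.1% lower) and 5.28% for RA against pluripotent (2.62% higher, 2.66% lower). The number of genes that fell in DOX alone was 639 without the first pluripotent array and 590 without the second.

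**Figure D2:**
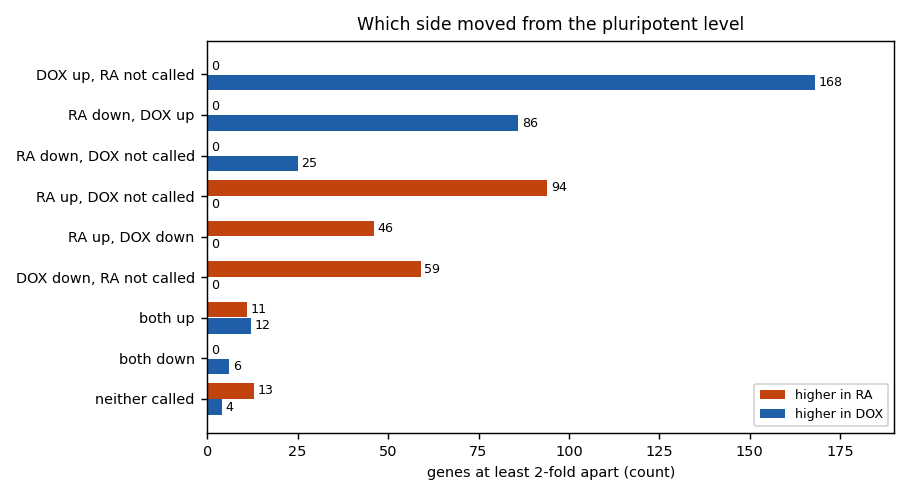
Number of genes at least 2-fold apart (horizontal axis, count) by which condition was called against the pluripotent arrays (vertical axis), orange for the 223 genes higher in RA and blue for the 301 higher in DOX. The longest bar is the 168 genes that rose in DOX with no call in RA, and the opposite movers number 86 and 46.

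The gene farthest toward DOX was EGR1, a zinc finger transcription factor of the immediate-early class. Its level was 11.67, 11.59 and 11.47 in the DOX arrays, 6.40, 6.27 and 6.64 in the RA arrays and 8.89, 9.05 and 8.39 in the pluripotent arrays. No arrays of different conditions overlapped, and the pluripotent cells stood in the middle. The difference was 35.3-fold (-5.14 ± 0.16, adjusted p = 9.3e-09), from a 6.97-fold rise in DOX and a 5.06-fold fall in RA, and all 3 probe sets of the gene were called higher in DOX. Because SRF elements are the textbook input to EGR1, the bases before its start are shown here as RefSeq gives them for assembly GRCh38.p14, with the matches to a CArG box in capitals. The window is chr5:138465229-138465478 on the plus strand, the 250 bases before the gene start.
EGR1: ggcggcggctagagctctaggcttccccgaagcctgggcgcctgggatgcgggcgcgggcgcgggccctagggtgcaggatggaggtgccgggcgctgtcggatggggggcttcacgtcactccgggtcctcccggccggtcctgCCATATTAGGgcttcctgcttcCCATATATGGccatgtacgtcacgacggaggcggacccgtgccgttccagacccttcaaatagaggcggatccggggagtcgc

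A promoter window of 300 bases, 250 before and 50 after the start, was in the RefSeq table for 15382 of the 19775 genes. Each window was searched on both strands for 7 motifs. The CArG box was found in 11 of 225 windows of genes at least 2-fold higher in DOX (4.89%), in 0 of 167 windows of genes at least 2-fold higher in RA and in 1.21% of all windows. Over gene lists it was in 1 of 16 windows of immediate-early factors (6.25%), 0 of 26 of p53 targets and 2 of 22 of retinoid genes (9.09%). Of these 11 genes 9 had moved in opposite directions, up in DOX and down in RA. Among all 301 genes at least 2-fold higher in DOX, 86 (28.6%) had done so. The 11 genes carried 14 matches, which are shown with 10 bases on each side.
EGR1, chr5:138465364-138465393: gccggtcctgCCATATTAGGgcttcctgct
EGR1, chr5:138465386-138465415: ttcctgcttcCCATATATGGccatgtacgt
ACTC1, chr15:34795639-34795668: gcgaaggggaCCAAATAAGGcaaggtggca
ACTG2, chr2:73892888-73892917: gaaaaaaccaCCTTATATGGtaatattgct
ACTG2, chr2:73892925-73892954: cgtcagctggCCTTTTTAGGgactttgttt
GARIN1B, chr7:128709020-128709049: caggtcatagCCTTAAAAGGaatgagtgtg
ACTA1, chr1:229434172-229434201: tgcccaacacCCAAATATGGctcgagaagg
FHL2, chr2:105438595-105438624: aatctggagaCCTTAAAAGGcacgtgggag
ISG15, chr1:1013396-1013425: gaaactgaagCCAAATTTGGccaccagcgc
MYL7, chr7:44141374-44141403: ctgttcctctCCTTATTTGGaccttcaggt
CAPN2, chr1:223701489-223701518: cattatattcCCTTATTTGGtcccaggcag
RCAN1, chr21:34615333-34615362: gaattccgttCCTTTATTGGccccgtctcc
SRF, chr6:43171229-43171258: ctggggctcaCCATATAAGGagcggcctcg
SRF, chr6:43171249-43171278: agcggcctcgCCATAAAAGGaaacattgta

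Each sequence above is written 5′ to 3′ on the strand of its gene, from GRCh38.p14. Each match lies before the gene start, and the last 10 bases shown for the second SRF match lie after it. Several of the genes with these matches encode parts of the contractile apparatus. ACTC1, the cardiac actin gene, was at 12.58, 12.64 and 12.67 in DOX and at 10.04, 9.97 and 10.01 in RA (-2.62 ± 0.07, adjusted p = 4e-09). ACTG2, the enteric smooth muscle actin gene, was at 9.34, 9.45 and 9.58 in DOX and at 6.98, 7.10 and 6.99 in RA (-2.43). The skeletal actin gene ACTA1 differed by -1.76 and the atrial myosin light chain gene MYL7 by -1.45. FHL2, a LIM domain protein gene, differed by -1.65, the ubiquitin-like protein gene ISG15 by -1.57, GARIN1B by -2.42, the calpain gene CAPN2 by -1.33 and the calcineurin regulator gene RCAN1 by -1.12. SRF itself was at 9.14, 8.95 and 9.25 in DOX and at 8.14, 8.02 and 8.18 in RA (-1.0 ± 0.09, adjusted p = 2.8e-05). RCAN1 and SRF were the 2 genes of the 11 that rose in DOX with no call in RA. A match is a run of letters and does not show that SRF was bound there.

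The other motifs were read in the same windows. The AP-1 site, searched as TGANTCA, was in 7.56% of windows of the DOX-high genes, 7.19% of the RA-high genes and 5.83% of all windows. The TATA box, searched as TATAAA, was in 12.4%, 8.98% and 8.76%, and the cyclic AMP response element in 3.11%, 2.40% and 2.67%. A p53 response element, a pair of adjacent decamers with at most 2 mismatches and their core C and G kept, was in 2 of the 225 DOX-high windows (0.889%, against 0.241% of all windows), those of ACTA2, the vascular smooth muscle actin gene, and S100A6, a calcium-binding protein gene. None of the 167 RA-high windows held one, which says only that these letters were not in the window. The windows were of like composition, with a median GC content of 66.3% in the DOX-high genes, 64.3% in the RA-high genes and 63.0% in all.

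Genes with the largest differences toward DOX were led by stress and signalling genes. JUN, the AP-1 subunit gene, was at 10.53, 10.87 and 10.77 in DOX, 5.98, 6.58 and 6.12 in RA and 7.64, 7.68 and 7.55 in pluripotent cells, a 22.6-fold difference (-4.50 ± 0.14, adjusted p = 1.1e-08). All 4 of its probe sets were called higher in DOX, with a difference of -0.951 where probe sets with the suffixes x_at and s_at were left out. GDF15, a secreted stress factor and p53 target, was at 10.30, 10.26 and 10.55 in DOX and at 5.55, 5.55 and 5.53 in RA (28.4-fold, -4.83 ± 0.09, adjusted p = 2.8e-10). That value rests on 1 of 3 probe sets, an x_at one, and without such probe sets GDF15 was at 0.232 (adjusted p = 0.15). PLAU, the urokinase gene, was at 10.38, 10.32 and 10.30 in DOX and at 6.28, 6.22 and 6.03 in RA (17.9-fold), and both of its probe sets were called. PLK2, a polo-like kinase gene, was at 9.99, 10.23 and 10.04 against 5.95, 5.99 and 5.93 (17.5-fold). Its pluripotent arrays, at 6.27, 6.00 and 5.83, lay with the RA arrays.

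The remaining leaders toward DOX were 14.1-fold to 17.3-fold apart. MAFF, a small MAF protein gene (16.9-fold), BHLHE40, a clock-linked repressor gene (16.2-fold), EGR3 (14.9-fold), NPPB, the B-type natriuretic peptide gene (14.4-fold), and THBS1, the thrombospondin gene (14.1-fold), had risen in DOX with no call in RA. PHLDA2, a pleckstrin homology domain gene (17.3-fold), and RHOB, a small GTPase gene (17.2-fold), had also fallen in RA. Single probe sets carry some of these values. PHLDA2 was called by 1 of 3 probe sets, RHOB by 1 of 5 and THBS1 by 4 of 7, and averaged over their probe sets the differences were -1.54, -0.936 and -1.53. Averaging likewise gave -2.19 for BHLHE40, -2.997 for MAFF, -3.29 for JUN and -1.65 for GDF15. PHLDA2 lost its call without x_at and s_at probe sets (-0.160, adjusted p = 0.49), and THBS1 was at -0.569.

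**Figure D3:**
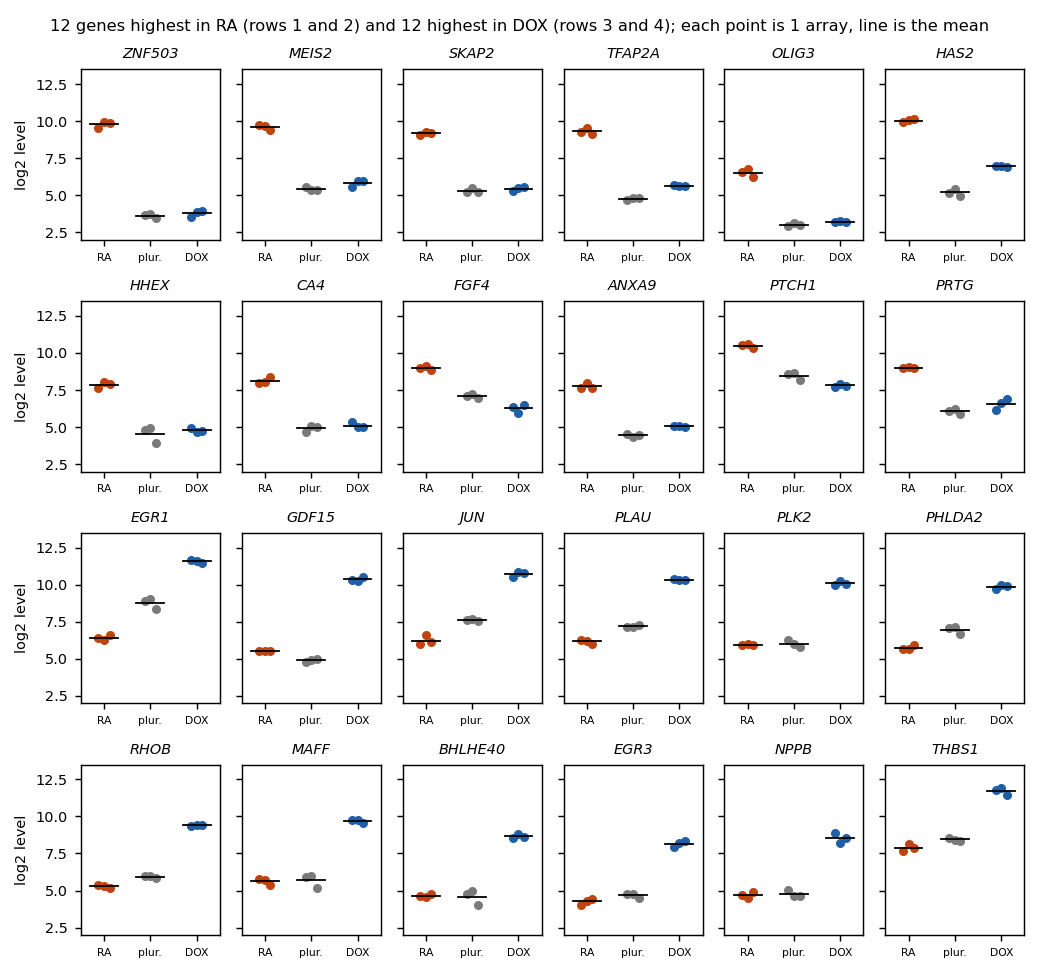
Level of each of 24 genes (vertical axis, log2) in the 3 RA, 3 pluripotent and 3 DOX arrays, with a line at each mean; the upper rows hold the 12 genes farthest toward RA and the lower rows the 12 farthest toward DOX. Pluripotent arrays lie with RA for PLK2, MAFF and NPPB, with DOX for ZNF503, SKAP2 and OLIG3, and between both for EGR1, JUN, FGF4 and PTCH1.

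Immediate-early factors were higher in DOX nearly throughout. Of 20 measured members 18 were higher in DOX, 15 of them at least 2-fold, and 0 were higher in RA, where 7.68% of all genes were called higher in DOX. The median difference was -2.03 against -0.00399 over all genes. In DOX 17 had risen and 0 had fallen from the pluripotent level, and in RA 2 had risen and 4 had fallen. The 4 with the largest differences were EGR1, JUN, MAFF and BHLHE40. NR4A2, an orphan nuclear receptor gene, and NR4A3 were the 2 members not called, at -0.433 and 0.099. KLF4 was a member that separated through RA alone, at -0.584 from pluripotent in RA and 0.022 in DOX.

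Targets of p53 separated the conditions in 28 of 35 measured cases, all 28 higher in DOX, where 7.68% of all genes were called in that direction. In RA 10 of the 35 had risen and 2 had fallen, and in DOX 32 had risen and 0 had fallen. Genes of arrest and feedback came first, with 12 of 14 higher in DOX and a median of -1.48. CDKN1A, which encodes the cyclin-dependent kinase inhibitor p21, was at 10.89, 10.76 and 10.56 in DOX, 8.0, 7.91 and 7.91 in RA and 7.06, 7.24 and 6.79 in pluripotent cells. The 3 groups did not overlap, and RA stood above pluripotent. The difference was 6.94-fold (-2.80 ± 0.12, adjusted p = 6.8e-08), between a 13.1-fold rise in DOX and a 1.89-fold rise in RA. MDM2, the ubiquitin ligase gene that limits p53, had the same order, with 11.61, 11.64 and 11.71 in DOX, 10.02, 10.09 and 10.05 in RA and 9.64, 9.80 and 9.45 in pluripotent cells (3.04-fold, adjusted p = 7e-07, called by 7 of 10 probe sets, -2.63 without x_at and s_at probe sets). GADD45A, a growth arrest gene, was at 10.37, 10.53 and 10.50 in DOX, 8.49, 8.56 and 8.52 in RA and 8.04, 8.11 and 7.75 in pluripotent cells (3.84-fold). RPS27L, a p53-induced ribosomal protein homologue, rose in both too, by 0.909 in DOX and 0.479 in RA, so its RA-DOX difference was -0.429. CCNG1 and PLK3 were the 2 members not called, at -0.117 and -0.326.

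Death genes of the p53 group were higher in DOX in 11 of 12 measured cases, with a median of -0.827. FAS, a death receptor gene, was at 7.5, 7.58 and 7.63 in DOX and at 4.55, 4.64 and 4.51 in RA, a level below the median probe set (8.03-fold, -3.01 ± 0.11, adjusted p = 2.4e-08). Its pluripotent arrays, at 4.51, 4.35 and 4.04, were as low as RA. FAS was called by 4 of 5 probe sets, and without x_at and s_at probe sets the call was lost, at -0.267 (adjusted p = 0.072). TNFRSF10A, a TRAIL receptor gene, was at 8.87, 8.74 and 8.65 in DOX and at 6.20, 6.35 and 6.15 in RA (5.73-fold, 3 of 3 probe sets), and the decoy receptor gene TNFRSF10D was 2.63-fold apart (-0.780 averaged over its probe sets). TP53I3, an oxidoreductase gene, moved both ways, at 9.83, 10.00 and 9.93 in DOX, 7.47, 7.58 and 7.54 in RA and 8.24, 8.17 and 8.53 in pluripotent cells. BAX, the pore-forming death gene, was the member not called: it was 8.27, 8.14 and 8.02 in DOX and 8.24, 8.43 and 8.17 in RA (0.138), and had risen from pluripotent in both conditions, by 0.323 and 0.460. BBC3 and BTG2 of these lists had no probe set of their own and were not analysed here.

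Repair and metabolic targets of p53 were higher in DOX in 5 of 9 measured cases, by a median of -0.543. TIGAR, a fructose bisphosphatase gene, was at 9.80, 9.73 and 9.95 in DOX and at 8.15, 8.22 and 8.25 in RA (3.07-fold). POLH, the translesion polymerase gene, was 2.93-fold apart, called by 4 of 6 probe sets, with their mean at -0.757. RRM2B, a ribonucleotide reductase gene, was 1.88-fold apart and DDB2, a damage sensor gene, 1.71-fold. DDB2 had risen in RA as well, by 0.375, against 1.15 in DOX.

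Matricellular and actin cytoskeleton genes were higher in DOX in 12 of 13 measured cases, 11 of them at least 2-fold, beside 7.68% of all genes called higher. The median was -2.27, the lowest of the 31 lists. In DOX 12 had risen, and in RA 6 had fallen and 1 had risen. TAGLN, the gene of the smooth muscle protein transgelin, was at 12.27, 12.24 and 12.31 in DOX, 8.88, 8.71 and 9.15 in RA and 10.72, 10.54 and 10.76 in pluripotent cells. Pluripotent cells thus stood near the middle of a 10.3-fold difference (-3.36 ± 0.11, adjusted p = 1.1e-08), which was -1.20 without x_at and s_at probe sets. CNN1, the calponin gene, was at 10.27, 10.28 and 10.31 in DOX, 7.39, 7.01 and 7.22 in RA and 7.79, 7.74 and 7.82 in pluripotent cells (8.45-fold). TPM1, a tropomyosin gene, was the member not called, at 0.045.

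Some of these genes are also expressed by fibroblasts, so a list of 13 fibroblast and stromal markers was read beside them. Of the 13, 5 were higher in DOX and 1 in RA, beside 7.68% and 11.3% of all genes. The mean log2 level of the list was 6.43 to 6.51 in DOX, 6.19 to 6.27 in RA and 6.26 to 6.30 in pluripotent arrays. Those higher in DOX were THY1 (-0.701), COL6A3 (-0.791), S100A4 (-0.569), COL5A1 (-0.422) and FBN1 (-0.468), and PDGFRA was higher in RA (0.387). FBN1 was at 0.065 without x_at and s_at probe sets, and lost its call without the first RA array (adjusted p = 0.057), without the second DOX array (0.052) and where its probe sets were averaged (-0.117, adjusted p = 0.3). COL6A3, DCN, LUM and POSTN lay below the median probe set in every condition. The part of such cells in the matricellular and actin differences was not tested.

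Feedback genes of the ERK pathway did not move as a block. Of 12 measured members 5 were higher in DOX and 2 in RA, beside 7.68% and 11.3% of all genes. The median was -0.363. DUSP6, the ERK phosphatase gene, was at 9.10, 9.34 and 9.32 in DOX, 5.28, 5.51 and 5.99 in RA and 7.70, 7.65 and 8.25 in pluripotent cells. It was 12.6-fold apart (-3.65 ± 0.19, adjusted p = 3.5e-07), called by 3 of 3 probe sets, and moved 4.83-fold down in RA and 2.61-fold up in DOX. PHLDA1 was 9.36-fold apart on 6 of 6 probe sets (-2.36 averaged) and moved both ways in the same manner, while the phosphatase gene DUSP5 (5.65-fold) had risen in DOX alone. ETV5 (-0.972) and SPRY4 (-0.694) were also higher in DOX. SPRED2 (1.25) and SPRY1 (0.508), both inhibitors of the pathway, were higher in RA. SPRED2 was at 8.64, 8.71 and 8.78 in RA against 7.42, 7.62 and 7.35 in DOX, called by 1 of 3 probe sets, with their mean at 0.443.

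Inflammatory and other stress genes were called in part, beside 7.68% of all genes called higher in DOX and 11.3% higher in RA. Of 13 measured NF-kB and cytokine genes 3 were higher in DOX and 0 in RA: the chemokine gene CXCL1 (-1.62 ± 0.15), the NF-kB inhibitor gene TNFAIP3 (-0.774) and RELB (-0.453). TNFAIP3 lost its call without any of 4 single arrays, the first and the third of RA and the second and the third of DOX, with adjusted p-values of 0.053 to 0.055. RELB lost its call without the second RA array (adjusted p = 0.091), the first DOX array (0.064) or the second (0.076). CXCL8, at -0.470, missed the threshold (adjusted p = 0.053) and passed in 11 of the other settings tried. Of 12 genes of the integrated stress and unfolded protein responses 3 were higher in RA and 2 in DOX. DDIT4, a brake on mTOR signalling, was higher in RA (0.953) with a fall in DOX of -0.824, and ATF4 (0.299) and VLDLR (0.882) were the other 2. DDIT3 (-0.348) and PPP1R15A (-0.376) were higher in DOX. DDIT3 lost its call without any 1 of 3 single arrays, and PPP1R15A was called in 9 of its 19 other settings.

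Genes of mitosis were higher in RA almost throughout, and the calls against pluripotent were on the DOX side. Of 26 measured members 21 were higher in RA and 0 in DOX, where 11.3% of all genes were called higher in RA, and none was 2-fold apart. The median was 0.454. From the pluripotent level 20 had fallen in DOX, and in RA 0 were called in either direction. BUB1, a spindle checkpoint kinase gene, was at 10.05, 10.09 and 10.08 in RA, 10.00, 9.92 and 9.93 in pluripotent cells and 9.25, 9.22 and 9.10 in DOX (1.85-fold, 0.886 ± 0.071, adjusted p = 1e-05), called by 2 of 5 probe sets, with the mean of its probe sets at 0.328. The checkpoint kinase genes BUB1B (0.746) and TTK (0.812) also had their lowest levels in DOX, with RA and pluripotent means 0.159 and 0.005 apart. ECT2, a cytokinesis gene, was at 0.859, but at -0.167 without x_at and s_at probe sets. The 5 members not called were CCNB1, CCNA2, CDK1, AURKB and CDCA8, at 0.135 to 0.279.

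Replication genes did not follow the mitotic ones. Of 23 measured members 5 were higher in RA and 2 in DOX, beside 11.3% and 7.68% of all genes. The median was 0.08. CCND2, a G1 cyclin gene, was at 10.97, 11.02 and 10.82 in RA, 9.53, 9.62 and 9.71 in DOX and 9.85, 10.00 and 9.69 in pluripotent cells (2.49-fold, 4 of 4 probe sets), a rise in RA. CDT1, an origin licensing gene, was higher in RA (0.816) through a fall in DOX. MCM2 (0.337), MCM6 (0.235) and E2F2 (0.361) were the other 3 higher in RA. The nucleotide synthesis genes RRM2 (-0.653) and TYMS (-0.616) were higher in DOX, where both had risen.

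DNA repair and checkpoint genes were higher in RA in 6 of 15 measured cases and in DOX in 0, beside 11.3% and 7.68% of all genes. From the pluripotent level 5 had fallen in DOX, where 8.1% of all genes fell, and 0 were called in RA. ATR, the kinase gene that senses stalled forks, was at 8.39, 8.74 and 8.50 in RA and 7.79, 7.74 and 7.61 in DOX (1.77-fold, 0.827 ± 0.098, adjusted p = 1.9e-04), and at 0.425 without x_at and s_at probe sets. MSH6, a mismatch repair gene, was at 11.59, 11.64 and 11.55 against 10.88 in each DOX array (0.714). RAD17, a checkpoint clamp loader gene, was at 0.600 on 3 of 3 probe sets. XRCC4, an end-joining gene, was at 0.464, but at -0.044 without x_at and s_at probe sets. CHEK2 (0.353) and PARP1 (0.277) were the other 2.

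The gene farthest toward RA was ZNF503, a zinc finger repressor gene. It was at 9.55, 9.97 and 9.90 in RA, 3.53, 3.87 and 3.96 in DOX and 3.69, 3.75 and 3.47 in pluripotent cells. DOX and pluripotent arrays overlapped and lay below the median probe set, so the 64.9-fold difference (6.02 ± 0.14, adjusted p = 1.2e-09) may be a lower bound. It came from 1 of 4 probe sets, and the mean of all 4 differed by 1.55. MEIS2, a homeobox cofactor gene, was at 9.73, 9.68 and 9.40 in RA, 5.59, 5.96 and 5.96 in DOX and 5.57, 5.34 and 5.38 in pluripotent cells (13.6-fold). SKAP2, an adaptor protein gene beside the HOXA cluster, was at 9.05, 9.29 and 9.21 in RA against 5.29, 5.47 and 5.56 (13.4-fold, 4 of 6 probe sets, 2.11 averaged over them). OLIG3, a neural progenitor factor gene, was at 6.59, 6.80 and 6.21 in RA against 3.18, 3.25 and 3.22 (9.97-fold).

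TFAP2A, a factor of surface ectoderm, was at 9.29, 9.54 and 9.17 in RA, 5.71, 5.60 and 5.60 in DOX and 4.67, 4.85 and 4.83 in pluripotent cells. It was 13.0-fold apart (3.70 ± 0.10, adjusted p = 3.6e-09) on 1 of 3 probe sets, with the mean of all 3 at 1.34. HAS2, the hyaluronan synthase gene, was at 9.95, 10.07 and 10.12 in RA, 6.97, 7.0 and 6.91 in DOX and 5.18, 5.45 and 4.98 in pluripotent cells (8.48-fold, 2 of 2 probe sets). Both genes had also risen in DOX, by 0.850 and 1.76, so the rise from pluripotent in RA, of 4.55 and 4.84, was larger than the distance from DOX. HHEX, a homeobox repressor gene (8.31-fold), CA4, a carbonic anhydrase gene (8.06-fold), ANXA9, an annexin gene (6.43-fold), and PRTG, a protogenin adhesion gene (5.43-fold), completed the genes farthest toward RA together with FGF4 and PTCH1. Without x_at and s_at probe sets CA4 was at 1.94 and HHEX at 2.26, and PRTG was at 1.67 averaged over its probe sets.

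The receptor gene RARB is itself a textbook target of retinoic acid. It was at 6.50, 6.56 and 6.36 in RA, 4.38, 4.12 and 4.40 in DOX and 3.89, 4.54 and 4.37 in pluripotent cells, a 4.52-fold difference (2.18 ± 0.15, adjusted p = 3.1e-06) on 1 of 5 probe sets, with the mean of all 5 at 0.496. DOX and pluripotent arrays overlapped. The bases before its start, chr3:25428013-25428262 on the plus strand of GRCh38.p14, are shown because they hold the match to a DR5 retinoic acid response element, in capitals, that was found in 1 of 167 windows of RA-high genes and in 10 of all 15382 windows (0.065%).
RARB: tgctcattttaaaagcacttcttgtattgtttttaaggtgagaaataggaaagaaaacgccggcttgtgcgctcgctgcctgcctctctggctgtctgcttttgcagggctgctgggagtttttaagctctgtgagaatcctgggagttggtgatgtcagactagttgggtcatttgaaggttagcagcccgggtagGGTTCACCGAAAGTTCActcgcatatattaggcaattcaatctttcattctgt

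Retinoid genes beyond the receptor moved in part. Of 12 measured genes of retinoid metabolism and binding 4 were higher in RA and 1 in DOX, beside 11.3% and 7.68% of all genes. CYP26A1, whose enzyme degrades retinoic acid, was at 12.12, 12.36 and 12.51 in RA, 11.01, 10.95 and 10.96 in DOX and 10.67, 10.75 and 10.66 in pluripotent cells (2.56-fold, 1.36 ± 0.10, adjusted p = 4.3e-06). CRABP2, which carries retinoic acid to its receptors, was at 10.81, 10.89 and 11.07 in RA against 9.32, 9.35 and 9.39 in DOX (2.96-fold). DHRS3, a retinal reductase gene, was 1.58-fold apart, and the fatty acid binding protein gene FABP5 was the fourth (0.265). The member higher in DOX was ALDH1A3, which makes retinoic acid, at 8.06, 8.15 and 8.04 in DOX and 6.72, 6.97 and 7.06 in RA (2.24-fold). It had risen in DOX with no call in RA, on 1 of 2 probe sets. Of 15 measured receptors and response genes 6 were higher in RA and 1, TGM2 (-0.334), in DOX. The 6 were ZNF503, MEIS2, SKAP2, RARB, ZNF703 (1.11) and the corepressor gene NRIP1 (0.840). LRAT, which stores retinol as esters, was not called between the conditions (-0.102) and had fallen in both, by 1.65 in RA and by 1.55 in DOX.

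Surface ectoderm, amnion and trophoblast genes leaned to RA, and several had risen in DOX as well. Of 19 measured members 10 were higher in RA and 2 in DOX, beside 11.3% and 7.68% of all genes. Of the 10, 5 were at least 2-fold higher, and the median of the list was 0.559. From the pluripotent level 11 had risen in RA, 8 had risen in DOX and 0 had fallen in either. GATA3 was at 8.21, 8.50 and 7.66 in RA, 5.96, 6.54 and 6.29 in DOX and 4.91, 4.91 and 4.96 in pluripotent cells (3.63-fold, 3 of 3 probe sets, 1.14 without x_at and s_at probe sets). GRHL3, an epidermal factor gene, was at 8.69, 8.59 and 8.39 in RA, 6.83, 6.81 and 7.0 in DOX and 4.86, 5.61 and 4.44 in pluripotent cells (3.19-fold). In both genes the damaged cells stood between pluripotent and differentiating cells with no overlap. DLX5, a homeobox gene, was at 5.69, 5.87 and 5.25 in RA against 3.86, 3.92 and 3.71 in DOX (3.42-fold), and had risen in RA alone. The 2 members higher in DOX were EPAS1 (-1.002) and the keratin gene KRT8 (-0.346).

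BMP ligands, inhibitors and targets were split. Of 13 measured members 6 were higher in RA and 3 in DOX, beside 11.3% and 7.68% of all genes. At least 2-fold apart were 3 of each, and the median was 0.345. The ligand gene BMP4 was at 8.58, 8.40 and 8.01 in RA, 6.35, 6.42 and 6.29 in DOX and 6.65, 6.79 and 6.54 in pluripotent cells (3.93-fold). GREM1, which encodes a secreted BMP antagonist, went the other way, at 6.11, 6.72 and 6.25 in DOX and 4.13, 4.52 and 4.25 in RA (4.16-fold, 2 of 2 probe sets). The ligand gene BMP2 was higher in DOX (-1.002) through a fall in RA. The inhibitory SMAD genes parted: SMAD7 was at 8.63, 8.79 and 8.63 in DOX and 6.83, 6.78 and 6.94 in RA (3.56-fold), whereas SMAD6 was higher in RA (1.18) on 1 of 4 probe sets and lost that call without x_at and s_at probe sets (0.092). The other 4 higher in RA were the BMP target genes ID1 (0.523), ID3 (1.13), ID4 (0.626) and the pseudoreceptor gene BAMBI (0.981), all 4 of which had risen in both conditions.

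FGF ligands and receptors were mostly higher in RA, although no FGF had been added to that medium. Of 10 measured members 6 were higher in RA and 1 in DOX, beside 11.3% and 7.68% of all genes. The median was 0.548. FGF4 was at 8.99, 9.13 and 8.82 in RA, 6.38, 5.92 and 6.47 in DOX and 7.13, 7.24 and 6.95 in pluripotent cells (6.61-fold, 2.72 ± 0.14, adjusted p = 3.6e-07), on 1 of 2 probe sets, with their mean at 1.5. FGF19 (2.61-fold) and FGF13, an intracellular member of the family (2.06-fold), had risen in RA with no call in DOX. Their DOX arrays differed from pluripotent by -0.395 and -0.304, both short of the threshold. FGF2, the ligand used to keep stem cells pluripotent, was the member higher in DOX, at 9.53, 9.66 and 9.54 against 8.37, 8.33 and 8.58 in RA (2.21-fold, 2 of 2 probe sets), and had risen in DOX. The receptor genes FGFR1 (0.591) and FGFR2 (0.505) were higher in RA with a fall in DOX, and FGFR3 (0.968) had risen in both.

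Genes that moved in opposite directions gave some of the widest separations, where by construction the 2 movements add up in RA minus DOX. PTCH1, the hedgehog receptor and target gene, was at 10.52, 10.58 and 10.32 in RA, 7.71, 7.94 and 7.80 in DOX and 8.55, 8.66 and 8.21 in pluripotent cells (6.32-fold, 2.66 ± 0.12, adjusted p = 1.2e-07, 3 of 5 probe sets), and averaged over its probe sets it differed by 1.005. The other named genes up in RA and down in DOX were FGF4, the lysophosphatidic acid receptor gene LPAR3 (4.94-fold, 1.32 averaged over its probe sets), CCDC160 (4.39-fold), the WNT feedback gene AXIN2 (3.03-fold, 1 of 4 probe sets, 0.422 averaged), DPPA2 (2.07-fold) and VLDLR (1.84-fold). In the other direction, up in DOX and down in RA, stood EGR1, JUN, PLAU, PHLDA2, RHOB, DUSP6, TAGLN, PHLDA1, CNN1 and TP53I3 together with genes of the NODAL pathway. The count of genes up in RA and down in DOX, 79 over all called genes, was 124 with a trended and robust spread and 120 with array weights, and 30 without the first pluripotent array.

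**Figure D4:**
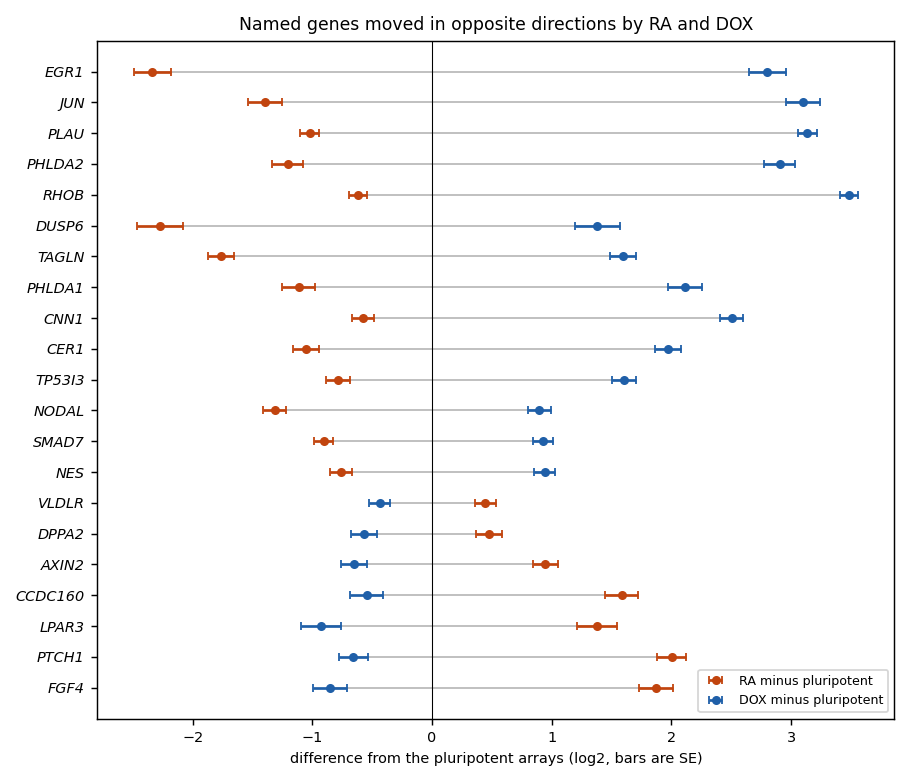
Difference of RA (orange) and of DOX (blue) from the pluripotent arrays (horizontal axis, log2, mean of 3 arrays minus mean of 3 arrays, bars are standard errors) for 21 named genes that were called in opposite directions. EGR1 shows a fall of 2.34 in RA and a rise of 2.80 in DOX, and PTCH1 a rise of 2.00 in RA and a value of -0.66 in DOX.

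NODAL signalling, with FGF the support of human pluripotency, separated through both sides. NODAL was at 8.06, 8.11 and 8.13 in DOX, 5.79, 5.82 and 6.06 in RA and 7.14, 7.12 and 7.36 in pluripotent cells (4.63-fold, -2.21 ± 0.10, adjusted p = 7.5e-08, 2 of 3 probe sets, -1.15 averaged over them). CER1, a secreted NODAL antagonist gene, was at 7.44, 7.72 and 7.49 in DOX, 4.59, 4.37 and 4.61 in RA and 5.46, 5.53 and 5.75 in pluripotent cells (8.13-fold). LEFTY1, a feedback antagonist gene, was at 10.78, 10.75 and 10.92 in DOX, 8.44, 8.30 and 8.51 in RA and 10.82, 10.80 and 11.52 in pluripotent cells (5.30-fold), a fall in RA with no call in DOX. FOXH1, a nuclear partner of the pathway, was slightly higher in RA (0.336), a call lost without the second RA array (adjusted p = 0.054) without the second or the third DOX array (0.061 and 0.055), and without x_at and s_at probe sets (0.269, adjusted p = 0.23). Of 6 measured members 3 were higher in DOX and 1 in RA, beside 7.68% and 11.3% of all genes. GDF3 (-0.208) and SKIL (0.101) were not called.

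A smaller set was lower in RA with no call in DOX. CAVIN3, a caveolar coat gene, was at 4.88, 4.86 and 5.84 in RA, 8.11, 8.16 and 8.11 in DOX and 8.04, 8.04 and 8.73 in pluripotent cells (7.67-fold). DOX arrays lay inside the pluripotent range, and RA arrays lay far below. The neurotensin gene NTS (3.70-fold), the calcium-binding protein gene S100A11 (3.40-fold) and the N-cadherin gene CDH2 (2.56-fold) had likewise fallen in RA with no call in DOX. So had the anterior neural factor gene OTX2 (2.20-fold), the secreted WNT antagonist gene SFRP1 (2.10-fold) and the core pluripotency gene PRDM14 (1.76-fold). OTX2 was at 8.83, 8.95 and 9.62 in RA, 10.37, 10.28 and 10.16 in DOX and 10.70, 10.58 and 10.81 in pluripotent cells, so its DOX arrays lay below the pluripotent ones without passing the test.

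The mirror class, higher in RA with a fall in DOX alone, held 59 genes at least 2-fold apart. OPN3, an opsin gene, was at 7.43, 7.67 and 7.60 in RA, 7.65, 7.70 and 7.27 in pluripotent cells and 5.85, 5.70 and 5.70 in DOX (3.53-fold, 2 of 2 probe sets). The noncoding RNA genes GABPB1-AS1 (3.32-fold, 4 of 6 probe sets, 0.797 averaged) and TMEM161B-DT (3.16-fold, 1 of 4, 0.451 averaged) and the zinc finger pseudogene ZNF204P (3.08-fold) were of this class. An antisense RNA and its partner share a locus, and how these probe sets were designed against strand was not examined. The histone gene H2AC6 was at 5.69, 5.74 and 5.67 in RA against 4.74, 4.22 and 4.23 in DOX (2.47-fold). Among 42 measured clustered histone genes 4 were higher in RA and 2 in DOX, beside 11.3% and 7.68% of all genes. Among 425 genes named ZNF with a number 58 were higher in RA and 23 in DOX, near those shares. Of these 425 genes 38 had fallen in DOX, where 8.1% of all genes fell. ZNF395 was at 1.32, but at -0.067 without x_at and s_at probe sets.

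A group of 6 genes at least 2-fold higher in DOX had fallen in both conditions, farther in RA. LINC01844, a long noncoding RNA gene, was at 4.84, 5.02 and 4.93 in RA, 6.27, 6.38 and 6.16 in DOX and 8.18, 8.33 and 7.66 in pluripotent cells (2.52-fold). SORBS2, an actin adaptor gene (2.84-fold, -0.879 averaged over its probe sets), CUZD1 (2.21-fold) and JAKMIP2-AS1 (3.20-fold) were of the same class.

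Core pluripotency genes did not part the conditions cleanly. Of 15 measured members 6 were higher in RA and 2 in DOX, beside 11.3% and 7.68% of all genes. The median was 0.226. NANOG was at 10.92, 11.03 and 10.96 in RA, 11.05, 11.28 and 11.13 in DOX and 11.25, 11.24 and 11.43 in pluripotent cells, a difference of -0.183 ± 0.086 that did not pass the test (adjusted p = 0.21). SOX2 was at 12.18, 12.23 and 12.27 in RA, 11.85, 12 and 11.74 in DOX and 12.32, 12.36 and 12.29 in pluripotent cells (0.363 ± 0.081, adjusted p = 0.011), a fall in DOX with no call in RA. The telomerase gene TERT (0.759) and DPPA2 (1.05) were higher in RA, as were LIN28A (0.346), L1TD1 (0.363) and DNMT3B (0.308). PRDM14 (-0.817) and LCK (-0.406) were higher in DOX. POU5F1 had no probe set of its own and was not analysed here. Over the 5 measured stem cell markers the mean log2 level was 12.30 to 12.41 in RA and 12.07 to 12.19 in DOX, so the defining markers of the labelled cell type were present in both.

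Junction and adhesion genes were divided, with 4 of 15 higher in RA and 5 in DOX, beside 11.3% and 7.68% of all genes. HAS2, its relative HAS3 (1.05), the claudin gene CLDN4 (1.02) and CLDN10 (0.247) were higher in RA. CDH2 (-1.36), the hyaluronan receptor gene CD44 (-0.965, 8 of 13 probe sets), CLDN7 (-0.649), CLDN6 (-0.541) and OCLN (-0.466) were higher in DOX. The E-cadherin gene CDH1 was at -0.106 and was not called.

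Lineage lists other than surface ectoderm had calls in both directions. Over all genes 11.3% were called higher in RA and 7.68% higher in DOX. Of 16 measured neural genes OLIG3 and IRX3 (1.04) were higher in RA and NES, the nestin gene, (-1.70) and OTX2 in DOX, with a median of 0.009. Of 11 neural crest genes SOX9 (0.772) was higher in RA and TWIST1 (-1.48), SNAI2 (-0.941) and ETS1 (-0.305) in DOX. ETS1 lost its call without the first RA array (adjusted p = 0.051) and where its probe sets were averaged (-0.097, adjusted p = 0.39). Of 15 mesoderm and endoderm genes HHEX was higher in RA and CXCR4 (-0.596) in DOX, and TBXT, EOMES and SOX17 were among those not called. WNT targets and antagonists gave 2 of 13 higher in RA, AXIN2 and RNF43 (0.342), and 3 in DOX, SFRP1, SFRP2 (-0.652) and LEF1 (-0.676). LEF1 lost its call without the first or second RA or DOX array, with adjusted p-values of 0.053 to 0.08, and with the mean of its probe sets (-0.158). Of 28 measured HOX genes HOXB2 was higher in RA (1.04, 2.06-fold), at 5.87, 6.21 and 5.42 against 4.62, 4.97 and 4.78, and HOXC6 (-0.555), HOXB6 (-0.525) and HOXB7 (-0.362) were higher in DOX. HOXB6 was at 0.113 without x_at and s_at probe sets, and its call was lost without the first or second RA or DOX array (adjusted p = 0.056 to 0.097) and where its probe sets were averaged (-0.206). HOXB7 lost its call in 4 of the other settings.

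Ribosomal, heat shock and cholesterol synthesis genes were read beside 11.3% of all genes called higher in RA and 7.68% higher in DOX. Of 56 measured ribosomal protein genes 0 were called higher in RA and 1, RPS27L, in DOX, with 2 at an unadjusted p under 0.05 by limma. Of 10 ribosome biogenesis genes 1, WDR12 (0.266), was higher in RA, a call lost without any 1 of 5 of the RA and DOX arrays. Of 7 heat shock genes 1, HSPB1 (-0.449), and of 10 cholesterol synthesis genes 2, HMGCS1 (-0.519) and IDI1 (-0.437), were higher in DOX. IDI1 was at 0.283 without x_at and s_at probe sets.

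**Figure D5:**
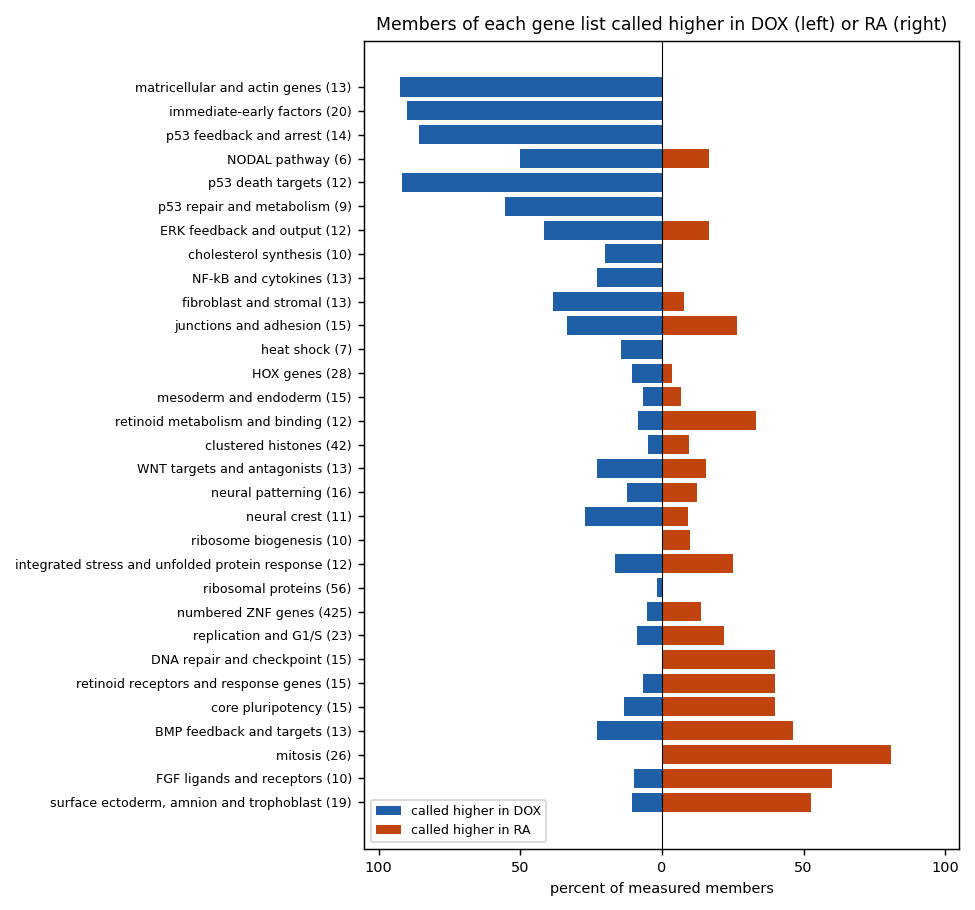
Share of measured members (horizontal axis, percent) called higher in DOX (blue, to the left) or in RA (orange, to the right) for 31 gene lists, ordered from top to bottom by the median difference, with the number of measured members in brackets. Matricellular and actin genes, immediate-early factors and p53 arrest genes stand at the top with calls toward DOX, and mitosis, FGF and surface ectoderm genes at the bottom with calls mostly toward RA, beside 7.68% and 11.3% of all genes.

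Certain families were read after their leading members had been seen, and they are described without weight on their direction. Of 7 measured caveolin and cavin genes CAV1 (11.6-fold), CAV2 (8.95-fold), CAVIN3 and CAVIN1 (2.01-fold) were higher in DOX. CAV1 was at 9.88, 10.11 and 9.87 in DOX, 6.23, 6.45 and 6.58 in RA and 8.62, 8.29 and 8.62 in pluripotent cells, so both sides had moved. Of 11 annexin genes ANXA1 (13.2-fold), ANXA3 (6.12-fold) and ANXA2 (-0.856) were higher in DOX, each up in DOX and down in RA. ANXA9 was higher in RA. For ANXA1 the value rests on 1 of 2 probe sets, with the other at -0.28. Of 19 S100 genes 7 were higher in DOX and 0 in RA, beside 7.68% and 11.3% of all genes. Of 10 metallothionein genes 8 were higher in DOX, all at least 2-fold, with MT2A at 11.43, 11.41 and 11.54 in DOX against 9.69, 9.69 and 9.52 in RA. Metallothionein genes are close copies, and the x_at suffix of most of these probe sets marks probes that can match several of them, so the count is uncertain.

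Control probe sets were compared between the RA and DOX arrays with a two-sided exact permutation test, whose smallest possible p for 3 arrays against 3 is 0.1. The gap between 3′ and 5′ probe sets is a sign of RNA integrity, and for GAPDH it differed between RA and DOX by -0.0133 (exact p = 0.7). For ACTB the gap was 1.54, 0.83 and 1.18 in RA and 0.69, 0.67 and 0.81 in DOX, a difference of 0.457 (exact p = 0.1). Probe sets for 18S ribosomal RNA were at 8.72, 8.81 and 8.43 in RA and 9.19, 9.13 and 9.02 in DOX, a difference of -0.461 (exact p = 0.1), and RNA45SN5, a ribosomal RNA precursor gene, was 4.94-fold higher in DOX. Hybridisation spikes differed by -0.0816 (exact p = 0.7). The part of the ACTB and 18S shifts in the gene differences was not tested.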

How the data were processed

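The authors deposited log2 expression values for 54675 probe sets on 9 arrays, made by RMA with the affy package per the labels and the submitters' processing notes, with versions and settings not given in sources used here. RMA puts the arrays on a common distribution, so a change in total RNA per cell is not seen. Gene names came from the platform annotation: 1801 probe sets naming several genes, 11721 naming none and 62 control probe sets among them were left out. A linear model over all 9 arrays was fitted with limma 3.58.1 in R 4.3.3 on 41091 probe sets, with 6 residual and 4.76 prior degrees of freedom. In simulated data for RA minus DOX over 41091 probe sets it recovered 47.8% of changes of 0.5, 94% of 1 and 100% of 2 on the log2 scale, with 3 false of 164 calls. The simulation changed far fewer probe sets than the 6164 (15.0%) called here, and its noise was independent between probe sets. Its rates therefore need not hold for the reported comparison.

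The gene lists and the comparison itself were chosen with earlier results of these data known. Named were the 12 highest and 12 lowest called genes without overlap, up to 4 members of each list and 4 of each class of movement with the largest differences, certain fixed genes, and genes with probe sets called in opposite directions. Further list members, the genes with motif matches and the families were named after their values were seen. Promoter sequences are RefSeq's for GRCh38.p14. Replicate numbers were not taken to pair the arrays. Alternatives were another summary of probe sets, filter, spread model, scaling, array weights, a replicate block and leaving out each array.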

Additional observations from a re-analysis of the deposited data

Results flagged for a closer look

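A group of 4 probe sets that the annotation does not tie to exactly 1 gene differed more than most of the genes described above, and they lie outside that comparison. Probe set 202628_s_at was at 10.34, 10.36 and 10.28 in DOX, 5.03, 4.94 and 4.78 in RA and 5.47, 5.35 and 5.43 in pluripotent cells, a difference of -5.41. Probe set 202627_s_at differed by -4.93 in the same direction. In both the pluripotent arrays lay near the RA arrays. Probe set 214639_s_at was at 9.32, 10.02 and 9.76 in RA, 3.88, 4.92 and 4.51 in DOX and 3.35, 3.81 and 4.27 in pluripotent cells, a difference of 5.26. Probe set 244867_at differed by 4.98, also toward RA. Of the 13522 probe sets without exactly 1 gene, 909 were called by limma (6.72%), 513 higher in RA and 396 higher in DOX.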

How the results depend on the processing

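Over the other settings, 1577 to 2564 genes were higher in RA and 1077 to 1705 in DOX, with 55.8% to 62.6% of calls higher in RA (59.5% as reported). At least 2-fold higher were 110 to 247 genes in RA and 206 to 315 in DOX, the 110 where probe sets of a gene were averaged. Without x_at and s_at probe sets 132 genes had fallen in RA alone and 65 had fallen in RA and risen in DOX. Up in RA and down in DOX were 124 genes with a trended robust spread and 120 with array weights. With single arrays left out in turn, the counts ran from 134 to 204 for a fall in RA alone (moved without the first or second RA array), 30 to 73 for up in RA and down in DOX (moved without the first or second RA array, the second DOX array, or the first or second pluripotent array), 37 to 54 for both up (moved without the first or second RA array), 26 to 54 for both down (moved without the third DOX array), 590 to 1216 for a fall in DOX alone (moved without the first or second pluripotent array) and 843 to 1731 for neither (moved without the second RA array). Reversed values were ZNF451 at 0.174 with the mean of probe sets and, without x_at and s_at probe sets, ECT2 at -0.167, FBN1 at 0.065, GDF15 at 0.232, HOXB6 at 0.113, IDI1 at 0.283, XRCC4 at -0.044 and ZNF395 at -0.067. The cause of these changes was not tested. Of the other values of named genes over all alternatives, 2809 kept their direction and side of the threshold, 55 lost their call and 25 gained one. With the replicate number as a block 2295 genes were higher in RA and 1516 in DOX, 3546 of them called the same way as without it. Same-numbered RA and DOX arrays had correlations of 0.065, 0.099 and -0.045 in their deviations. Same-numbered pairs with the pluripotent arrays had 0.157, 0.072 and 0.144 for DOX and -0.069, 0.227 and 0.169 for RA. Differently numbered arrays across conditions ran from -0.252 to 0.101. Not every same-numbered pair was above 0.1, and the numbers were not taken to pair the arrays. Most same-numbered values were above 0, so these correlations do not decide whether the arrays were paired. Whether arrays of the same number shared a batch was not tested. With only the RA and DOX arrays in the model, 2100 genes were higher in RA and 1368 in DOX. No class of movement can be given with only the RA and DOX arrays.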
